A study of Mus musculus with 6 samples.

Results

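The genes described here are the 44 collagen chain genes of the mouse, taken as every protein-coding RefSeq gene of the build GRCm38.p6 (mm10) whose symbol has the form Col, number, a, number. They are 44 of 21887 protein-coding genes. Open chromatin was scored in the window of each gene, its body and 20 kb on each side. The genes were split by the kind of structure their chains build: 11 fibrillar chains, 8 basement membrane chains (Col4a1 to Col4a6, Col15a1 and Col18a1) and 25 other chains.

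Chromatin accessibility was measured by ATAC-seq, in which the Tn5 transposase cuts open DNA, in primary mouse vascular smooth muscle cells bought from a supplier. A group of 3 control libraries came from cells given a negative control treatment, and a group of 3 knockdown libraries came from cells given siRNA against Arid3a, a DNA-binding protein that prefers AT-rich sequence. Each assay took 50000 cells, with a Tn5 reaction of 30 min, 24 h after transfection. The purpose was to find open regions that depend on Arid3a. The treatment label of each knockdown library carries its own number. The labels do not say whether these numbers mark different siRNAs or only replicates. The spread of that group may therefore include differences between siRNAs. Whether the 3 libraries of each group are separate cultures is not stated, and the p-values therefore reflect a spread between samples that may be technical. The culture protocol also mentions angiotensin II but not which libraries were exposed, so this was not used. Peak lists hold no transcript levels, so the degree of the knockdown was not analysed here.

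Collagens are the structural proteins of the extracellular matrix, each built from chains wound into a rope-like helix. Fibrillar collagens assemble into the tension-bearing fibers of the arterial wall, which smooth muscle cells secrete and maintain. Type IV collagens form the sheet-like network of basement membranes, and the remaining families tie fibers, cells and sheets together or span the cell membrane.

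The lists held 33248 to 52091 peaks per library, with a median of 8 to 11 sequence tags at the peak summit. The shortest lists and the lowest tag numbers, 8 at the median, were those of control replicate 2 and knockdown replicate 3. Of 6 smooth muscle marker genes, Acta2, Tagln and Smtn had a peak within 1000 bases of the gene start in 6 of 6 libraries, and Myh11 had none in any library. None of 5 endothelial, 5 leukocyte, 5 fibroblast and 5 epithelial markers had such a peak in all 6 libraries. Of 5 chondrocyte markers Sox9 did. A start peak in 1 to 5 libraries was seen for 2 smooth muscle, 1 endothelial, 1 leukocyte, 2 fibroblast and 2 chondrocyte markers. In a bulk preparation, a weak peak from a few fully open cells cannot be told apart from one that is weakly open in every cell.

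The promoters of 8 of the chains that the results turn on are printed first, each with 250 bases before the annotated start and 50 after it, so that base 251 is the start. They are RefSeq sequences of GRCm38.p6, written 5′ to 3′ on the strand of the gene. Capitals mark, on either strand, the CCAAT box by its letters, the GC box by GGGCGG (the site class of Sp1) and the core box of TATA promoters by TATAAA. A match is a description of the letters and not evidence of binding. Col1a2 and Col5a1 are fibrillar chains whose starts were open in every library, and Col3a1 is a fibrillar chain whose start was open in 1.
Col1a2, chr6:4505368-4505667, plus strand: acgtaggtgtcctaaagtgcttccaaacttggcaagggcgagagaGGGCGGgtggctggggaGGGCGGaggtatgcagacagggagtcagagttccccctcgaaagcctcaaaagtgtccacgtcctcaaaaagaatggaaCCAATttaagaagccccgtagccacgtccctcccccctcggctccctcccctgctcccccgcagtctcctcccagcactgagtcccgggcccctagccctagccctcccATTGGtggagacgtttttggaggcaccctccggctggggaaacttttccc
Col5a1, chr2:27886175-27886474, plus strand: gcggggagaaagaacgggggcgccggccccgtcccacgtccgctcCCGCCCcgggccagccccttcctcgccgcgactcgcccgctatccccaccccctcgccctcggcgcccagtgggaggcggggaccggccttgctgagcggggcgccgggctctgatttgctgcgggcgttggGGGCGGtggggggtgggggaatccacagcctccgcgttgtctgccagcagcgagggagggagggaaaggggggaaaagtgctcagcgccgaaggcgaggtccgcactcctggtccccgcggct
Col3a1, chr1:45311288-45311587, plus strand: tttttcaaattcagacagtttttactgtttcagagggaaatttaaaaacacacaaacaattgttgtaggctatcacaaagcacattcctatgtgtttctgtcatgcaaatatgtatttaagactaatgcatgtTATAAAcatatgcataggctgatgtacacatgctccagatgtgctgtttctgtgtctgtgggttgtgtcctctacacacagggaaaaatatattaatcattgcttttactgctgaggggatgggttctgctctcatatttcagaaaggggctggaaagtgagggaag
Col4a1 and Col4a2, and likewise Col4a5 and Col4a6, are neighbouring type IV genes transcribed away from each other. The annotated starts of Col4a1 and Col4a2 were 21 bases apart, so that their printed promoters overlap by 78 bases. Those of Col4a5 and Col4a6 were 1343 bases apart.
Col4a1, chr8:11312777-11313076, minus strand: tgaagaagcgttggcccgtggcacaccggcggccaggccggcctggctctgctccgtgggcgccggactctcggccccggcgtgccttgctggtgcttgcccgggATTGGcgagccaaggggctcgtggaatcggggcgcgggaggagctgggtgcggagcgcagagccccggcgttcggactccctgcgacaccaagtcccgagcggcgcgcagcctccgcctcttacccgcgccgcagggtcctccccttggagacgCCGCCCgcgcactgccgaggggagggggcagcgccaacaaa
Col4a2, chr8:11312555-11312854, plus strand: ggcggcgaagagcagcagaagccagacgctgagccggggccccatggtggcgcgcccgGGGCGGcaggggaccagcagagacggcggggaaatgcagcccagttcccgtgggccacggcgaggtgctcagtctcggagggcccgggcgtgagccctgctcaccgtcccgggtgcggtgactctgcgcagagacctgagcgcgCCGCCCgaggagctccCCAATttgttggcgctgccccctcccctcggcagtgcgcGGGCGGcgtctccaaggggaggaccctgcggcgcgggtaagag
Col4a5, chrX:141475169-141475468, plus strand: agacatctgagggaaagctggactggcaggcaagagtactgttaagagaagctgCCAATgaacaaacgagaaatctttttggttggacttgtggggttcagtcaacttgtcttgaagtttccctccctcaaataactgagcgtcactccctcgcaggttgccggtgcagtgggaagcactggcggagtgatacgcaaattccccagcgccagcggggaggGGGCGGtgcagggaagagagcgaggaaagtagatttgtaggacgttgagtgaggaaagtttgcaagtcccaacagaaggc
Col4a6, chrX:141474027-141474326, minus strand: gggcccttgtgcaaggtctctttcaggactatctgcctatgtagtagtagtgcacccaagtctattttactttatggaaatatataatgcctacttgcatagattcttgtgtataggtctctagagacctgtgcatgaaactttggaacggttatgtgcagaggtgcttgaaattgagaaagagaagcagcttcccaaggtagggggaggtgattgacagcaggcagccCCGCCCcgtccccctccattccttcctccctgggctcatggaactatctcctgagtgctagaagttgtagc
Col6a2, a chain of the beaded filament collagen VI, had the strongest start of the 44 genes. The promoter of the more downstream of its annotated starts is shown.
Col6a2, chr10:76623355-76623654, minus strand: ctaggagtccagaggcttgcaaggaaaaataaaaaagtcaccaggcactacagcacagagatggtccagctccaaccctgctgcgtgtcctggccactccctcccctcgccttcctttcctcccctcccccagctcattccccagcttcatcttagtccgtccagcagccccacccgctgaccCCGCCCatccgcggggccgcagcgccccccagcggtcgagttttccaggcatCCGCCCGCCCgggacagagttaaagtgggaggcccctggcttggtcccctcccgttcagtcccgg

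Most collagen genes did not have an open start in every library. A start was called open in a library when a peak overlapped the 1000 bases on either side of it. For 9 chains without an entry in the promoter table (Col1a1, Col2a1, Col4a3, Col5a2, Col9a3, Col12a1, Col14a1, Col22a1 and Col26a1), both ends of the gene were searched instead. By this measure 8 of 44 chains (18.2%) were open in 6 of 6 libraries, against 8178 of 21887 protein-coding genes (37.4%). A further 20 chains were open in 1 to 5 libraries, and 16 (36.4%) in none, against 41.2% of all genes. The number of open chains per library was 16, 14 and 19 in control replicates 1, 2 and 3 and 20, 18 and 13 in the knockdown replicates, so the ranges of the groups overlapped. Collagen windows were long, with a median of 154 kb, but genes with windows of at least that length were open in 6 of 6 libraries in 36.5% of cases. No test was made of these shares, since the genes are not replicates.

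The classes had these open starts. Of 8 basement membrane chains 4 were open in all libraries (Col4a1, Col4a2, Col4a5 and Col18a1) and none was closed in all. Of 11 fibrillar chains 3 were open in all libraries (Col1a1, Col1a2 and Col5a1), 7 in some, and Col2a1, the cartilage fibril chain, in none. Among 25 other chains only Col6a2 was open in all 6 libraries, 9 were open in some and 15 in none. The 15 were the transmembrane chains Col13a1, Col17a1 and Col25a1, the network chains Col8a2 and Col10a1, the collagen VI chains Col6a3, Col6a4 and Col6a5, and the fibril-associated chains Col9a1, Col9a3, Col12a1, Col20a1 and Col22a1, with Col26a1 and Col28a1.

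**Figure D1:**
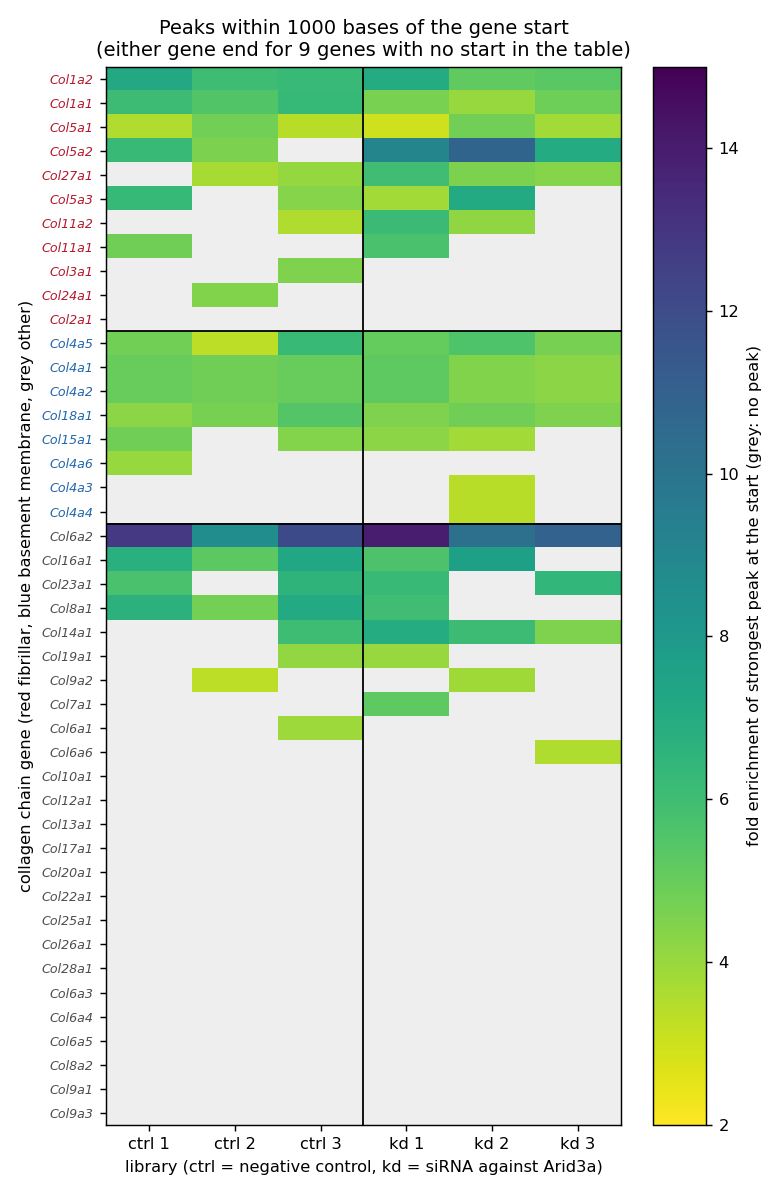
Fold enrichment of the strongest peak within 1000 bases of the start (color, no unit) for each collagen gene (rows, by class) in each of the 6 libraries (columns); gray cells have no peak. The 8 chains with a peak in 6 of 6 libraries are 3 fibrillar, 4 basement membrane and 1 other, and Col6a2 is the strongest.

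Where a collagen start was open, its peak was weak. The strength given here is the authors' fold enrichment, the tags at a summit relative to the background around it. It is scaled within each library and is used to describe peaks, not to measure a change between groups. Over the 8178 genes open in 6 of 6 libraries the median of the mean start fold was 8.54, with quartiles of 7.09 and 10.5. Over the 8 collagen genes it was 4.87, and 7 of the 8 lay below that lower quartile. Under stricter criteria fewer starts counted. When only peaks with −log10 q at or above 5 were kept, 2 chains were open in all libraries, against 25.1% of all genes. With each list shortened to its 33248 best peaks, only Col6a2 was, against 30.0% of all genes. No basement membrane start was open in all libraries under either criterion, so the order of the classes does not hold there.

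The collagen I chains, which pair to form the main fiber of the arterial wall, were both open. Col1a2 (chromosome 6, 4505618 to 4541543) had start folds of 7.16, 6.03 and 6.23 in control replicates 1, 2 and 3. In the knockdown replicates they were 7.02, 5.19 and 5.32. Knockdown replicates 2 and 3 lay below every control, and replicate 1 lay among the controls, so the groups overlapped. Its promoter, shown above, has 13 CpG, 2 GC boxes and 2 CCAAT matches, one of which covers the annotated start itself. Col1a1 (chromosome 11, 94936224 to 94953042) carried its peaks at the end of lower coordinate. Their folds were 6.11, 5.54 and 6.30 in the controls and 4.63, 4.001 and 4.89 in the knockdown libraries. All 3 control folds lay above the 3 knockdown folds, while at Col5a2, described below, the peaks present lay in the opposite order. Fold is not scaled between libraries, so neither order is read as a change, and no test was made. The share of all open genes with such an order is not given here. The signal at Col1a1 was split over neighbouring regions. The region at 94935981 to 94936600 had a peak in 3 of 3 control libraries and in knockdown replicate 3. The adjoining region at 94936676 to 94937405 had one in control replicates 1 and 3 and in all 3 knockdown libraries.

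The partners of collagen I in the same fibers, collagens III and V, differed from one another. Col3a1 (chromosome 1, 45311538 to 45349706), the chain of the extensible fibers of the vessel wall, had a start peak in control replicate 3 alone, with a fold of 4.52. Its promoter differs from the other fibrillar promoters shown in having 0 CpG and a TATAAA, at 117 to 112 bases before the start. A region 2.24 kb upstream of Col3a1 was open in 5 libraries, with folds of 6.48 and 6.86 in control replicates 1 and 3 and of 7.74, 4.42 and 6.57 in the knockdown libraries. Col5a1 (chromosome 2, 27886381 to 28039510), whose chain sets fiber thickness, was open at the start in 6 of 6 libraries. Its folds were 3.55, 4.75 and 3.42 in the controls and 2.93, 4.76 and 3.81 after knockdown, the lowest mean (3.87 ± 0.744, SD over the 6 libraries) of the 8 open chains. Its promoter was among the richest in CpG, with 34. Col5a2 (chromosome 1, 45374331 to 45503282), its partner chain, had peaks at the end of higher coordinate in 5 libraries. Their folds were 6.20 and 4.56 in control replicates 1 and 2 and 9.11, 10.8 and 7.02 in the knockdown replicates.

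The shared start of Col4a1 and Col4a2, the chains of the common basement membrane network, lay in a single region of chromosome 8, from 11312113 to 11313690. Its folds were 5.04, 4.81 and 5.05 in the controls and 5.20, 4.44 and 4.28 in the knockdown libraries, a mean of 4.80 ± 0.370 (SD over the 6 libraries). The peaks rested on 7, 7 and 8 tags in the controls and on 9, 7 and 6 in the knockdown libraries. The groups overlapped. Both promoters are rich in CpG, with 37 for Col4a1 and 33 for Col4a2. At the other type IV pair only 1 side was open throughout. Col4a5 had start folds of 4.78, 3.30 and 6.23 in the controls and 5.08, 5.56 and 4.65 after knockdown, while Col4a6 had a start peak in control replicate 1 alone, of fold 3.98. The promoters shown hold 11 CpG for Col4a5 and 3 for Col4a6. Col4a3 and Col4a4, chains known from the filtration membrane of the kidney, had a start peak in knockdown replicate 2 alone.

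Col18a1 and Col15a1 encode basement membrane chains that release antiangiogenic fragments. The start of Col18a1 at position 77166530 of chromosome 10 was open in all libraries, with folds of 4.26, 4.65 and 5.48 in the controls and 4.35, 4.82 and 4.52 in the knockdown libraries. The start of Col15a1 was open in 4 libraries, with folds of 4.81 and 4.42 in control replicates 1 and 3 and 4.28 and 3.79 in knockdown replicates 1 and 2. The libraries without a peak there were the 2 shallowest.

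Collagen VI, a microfibril chain family of the pericellular matrix, was uneven. Col6a2 (chromosome 10, 76595756 to 76623630) had start folds of 12.9, 8.64 and 12.1 in the controls and 14.01, 10.2 and 10.9 after knockdown (11.4 ± 1.93, SD over the 6 libraries), from 12 to 28 tags. It was the single open chain above the upper quartile of all open genes. Its neighbour Col6a1 on the same chromosome had a start peak in control replicate 3 alone, of fold 3.89, and Col6a3 had none. Col6a1 did have a region 4.39 kb upstream of its start in 6 of 6 libraries, with folds of 7.999, 8.005 and 7.675 in the controls and 7.58, 8.80 and 6.64 in the knockdown libraries. Col8a1, a network-forming chain that smooth muscle cells make after vessel injury, had a start peak in all 3 controls (6.63, 4.72 and 7.06) and in knockdown replicate 1 (6.001). Col12a1, which decorates collagen I fibers, had a start peak in no library.

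Collagen windows held regions that were open in every library, both at starts and away from them. Peaks of the 6 lists were merged where they overlapped by 1 base or more, which gave 394 regions in collagen windows among 85174 in all. A region with a peak in 6 of 6 libraries is called constitutive. Of the 394 regions, 82 (20.8%) were constitutive, against 24.4% of all regions and 26.1% of regions in any gene window. Another 135 (34.3%) had a peak in 1 library, against 33.5% of all regions. At least 1 constitutive region was found in the window of 35 of 44 chains (79.5%), against 62.6% of all genes, which have shorter windows at the median, and 72.2% of the genes with long windows.

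Most of these constitutive regions lay inside genes, away from starts. Of the 82, 17 (20.7%) overlapped the start window of any gene, 11 of them that of a gene outside the collagens. A share of 62.2% lay inside a gene body away from starts. Over the 16932 constitutive regions in the window of any gene the shares were 43.2% and 40.7%. Collagen windows were longer, at a median of 154 kb against 57.2 kb for all genes. Shares for genes of like length were not computed, so an effect of window length was not tested. The share inside gene bodies was 79.2% of 24 regions for basement membrane chains, 62.9% of 35 for other chains and 43.5% of 23 for fibrillar chains. The median window length of the classes fell in the same order. Peak strength depended on which starts were compared. The 48 constitutive regions within their own collagen gene away from its start had a median fold of 8.33, against 4.87 for the 6 at a collagen start. With the start of any gene counted, the medians in collagen windows were 8.27 for the 51 regions inside a gene and 7.12 for the 17 at a start, against 8.63 and 8.49 over all gene windows. For the windows of other chains alone the order was the opposite, 7.72 inside and 7.91 at starts.

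Fibrillar chains had the densest windows. These were the shortest of the collagen classes, at a median of 85.1 kb against 176 kb for basement membrane and 146 kb for other chains. Of their 23 constitutive regions 12 lay in the flanks. With gene bodies alone the fibrillar mean over the libraries fell from 46.9 to 37.9 peaks per Mb. The basement membrane mean was then 33.3 and that of the other chains 19.1. In every one of the 6 libraries the number of peaks per Mb was highest for fibrillar windows, next for basement membrane windows, then for the windows of all genes, and lowest for the other collagen chains. Fibrillar windows held 54.4, 27.2 and 53.0 peaks per Mb in control replicates 1, 2 and 3 and 54.4, 51.0 and 41.5 in the knockdown replicates. Basement membrane windows held 36.1, 25.2 and 38.8 in the controls and 38.1, 38.1 and 27.9 in the knockdown libraries. For the other chains the values were 23.8, 16.7 and 22.8, then 24.1, 24.6 and 20.9. All gene windows together gave 18.2 to 28.2 peaks per Mb. With type IV chains alone, the basement membrane mean over the 6 libraries fell from 34.1 to 24.4 peaks per Mb. That lies within the range of all gene windows, so the rank above them depended on including Col15a1 and Col18a1. The lowest value of each class was that of control replicate 2, the shortest list, and fibrillar windows lost the largest part of their peaks there.

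**Figure D2:**
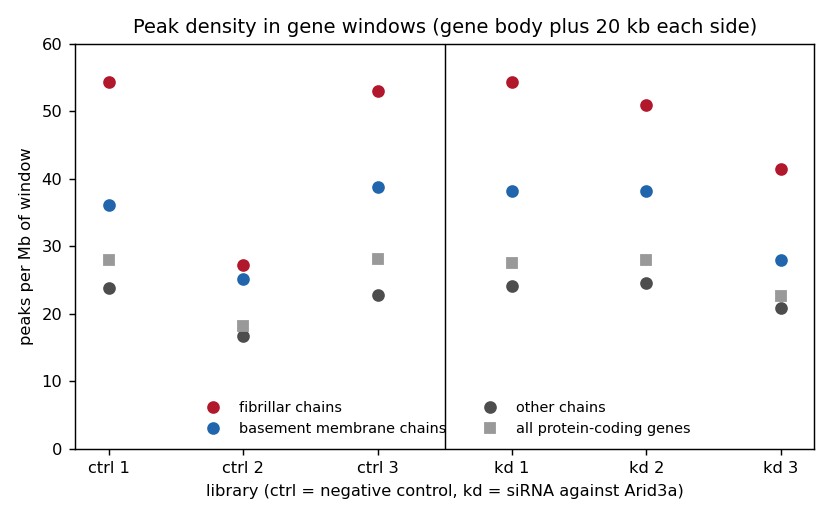
Peaks per Mb of window (y axis) in each of the 6 libraries (x axis) for fibrillar, basement membrane and other collagen chains (circles) and for all protein-coding gene windows (gray squares). Fibrillar points are highest in all libraries, at 27.2 to 54.4, and those of other chains are lowest, at 16.7 to 24.6.

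Constitutive regions per 100 kb of window followed the same order for fibrillar chains but not for the rest. The median was 2.48 for fibrillar, 1.21 for basement membrane and 1.23 for other chains, against 1.46 for all genes. It was 0.596 for genes with windows at least as long as the collagen median. The median window of those genes was 236 kb, longer than that of any of the 3 collagen classes, so length was not matched. Among fibrillar chains Col1a1 had the most, 3 regions or 5.28 per 100 kb, all of them in its flanks. Col11a1 and Col11a2, chains of cartilage fibrils, had none. Among basement membrane chains Col18a1 had the most, with 7 regions or 4.54 per 100 kb, and Col4a5 the fewest, with 1 or 0.394. Among the other chains Col7a1, the anchoring fibril chain, had 4 regions or 5.61 per 100 kb. The chains Col6a5, Col9a1, Col10a1, Col13a1, Col22a1, Col25a1 and Col26a1 had none. Col9a1 and Col10a1, both chains of cartilage, had no peak in any library.

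**Figure D3:**
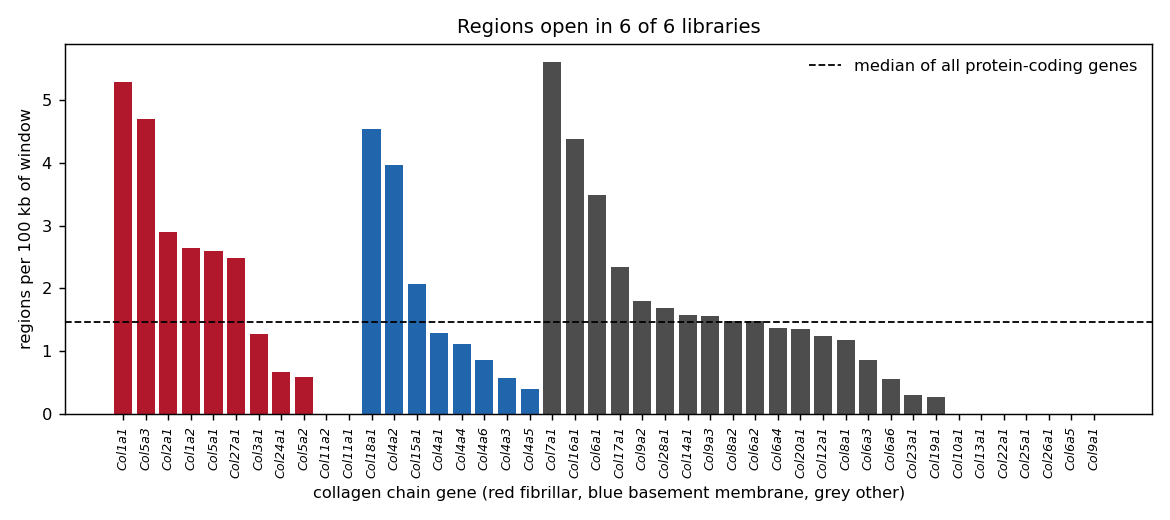
Constitutive regions per 100 kb of window for each of the 44 collagen genes, by class, with the median of all genes marked (1.46). Col7a1 (5.61), Col1a1 (5.28) and Col5a3 (4.70) are highest, and 9 genes are at 0. The regions of Col1a1 all lie in the flanks of its window.

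Several collagen genes carried strong regions far from the start. In Col4a2, 6 constitutive regions lay between 59.6 and 107 kb downstream of the start, all inside the gene. The one at 11400167 to 11400770, 87.7 kb from the start, had folds of 15.0, 6.63 and 11.7 in the controls and 9.37, 8.85 and 5.19 in the knockdown libraries. The mean folds of the 6 ran from 6.54 to 9.47, each above the 4.80 of the shared start. Col4a1, on the other side of that start, had 1 constitutive region away from it, 52.6 kb downstream, with a mean fold of 6.16. The difference between the neighbours was not tested.

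**Figure D4:**
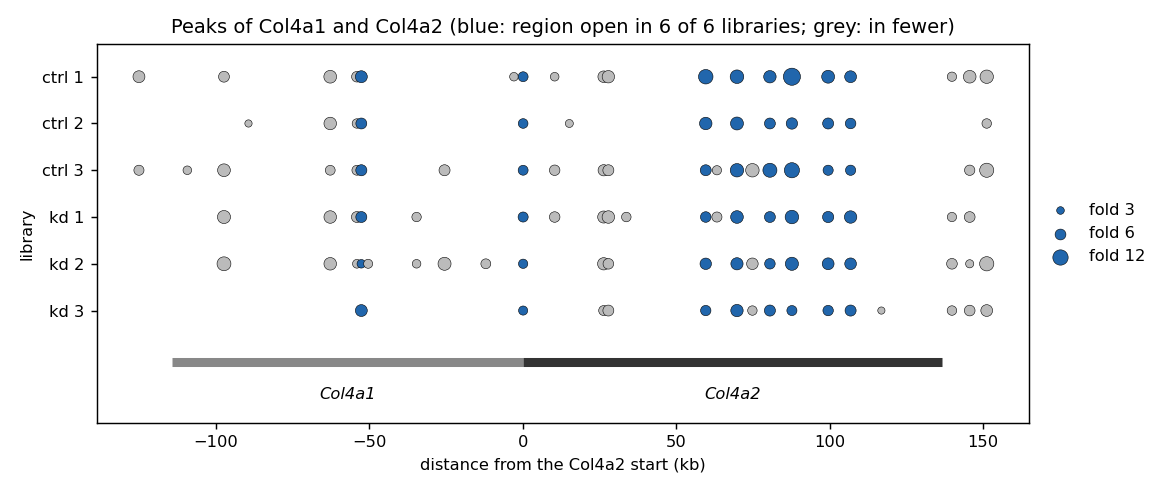
Map of open regions at Col4a1 and Col4a2, with distance from the Col4a2 start in kb on the x axis and the 6 libraries on the y axis; each point is a peak, its size the fold enrichment, blue in regions open in all 6 libraries and gray in the rest. Bars mark the gene bodies. The shared start lies at 0, and the 6 constitutive regions of Col4a2 lie between 59.6 and 107 kb.

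In Col18a1 the strongest of 7 constitutive regions lay at 77084286 to 77085042, with folds of 13.1, 9.50 and 12.9 in the controls and 11.0, 15.7 and 10.5 after knockdown. In Col15a1 a region at 47310726 to 47311212 of chromosome 4, 103 kb from the start, had folds of 11.3, 13.4 and 12.9, then 13.1, 13.7 and 11.1. Col1a2 had a region 25.5 kb inside the gene with folds of 11.5, 6.66 and 10.1 in the controls and 9.65, 9.02 and 7.20 in the knockdown libraries. Each of these exceeded the start peak of its gene in the same library wherever the gene had one.

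Among fibrillar chains the strongest regions were those of Col5a3, which encodes a minor collagen V chain, and Col27a1, a long fibrillar chain of cartilage. The Col5a3 region at 20760761 to 20761274 of chromosome 9, downstream of the gene, had folds of 18.0, 7.49 and 13.6 in the controls and 14.9, 12.2 and 12.6 after knockdown. The Col27a1 region at 63315952 to 63316724 of chromosome 4, inside the gene, had 13.6, 12.1 and 12.2, then 13.2, 14.9 and 9.54. Col3a1 and Col5a2, neighbours on chromosome 1, share the space between them. The region at 45355975 to 45356325 belonged to both windows and had folds of 9.69, 9.80 and 9.82 in the controls and 12.8, 11.7 and 7.99 after knockdown. It was the single constitutive region of either gene. For Col12a1, with no start peak, a region inside the gene at 79610359 to 79610663 of chromosome 9 was constitutive, with folds of 12.4, 8.32 and 9.97, then 15.8, 11.5 and 10.6. For Col6a3, also without a start peak, the constitutive region lay 8.95 kb inside the gene, with folds of 13.2, 8.40 and 8.47, then 13.04, 9.96 and 7.99. Counted over genes there were 405 entries for 394 regions, since 11 regions lay in more than 1 collagen window.

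The share of peaks that lay in collagen windows differed slightly between the groups. The controls had 230, 145 and 228 such peaks and the knockdown libraries 234, 231 and 187. Scaled to 10000 peaks of the library these were 44.8, 43.6 and 43.8 in the controls and 46.3, 45.0 and 44.9 in the knockdown libraries. The means were 44.1 ± 0.650 (SD, n = 3) and 45.4 ± 0.761 (SD, n = 3), a difference of 1.36 per 10000, and the groups did not overlap. The value was not stable: with lists of equal length the difference was 0.1003, and when only peaks with −log10 q at or above 5 were kept it was −0.957. It is a sum over the collagen genes and received no test.

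Within each class the ranges of the control and knockdown libraries overlapped. Fibrillar windows held 15.6, 12.03 and 15.0 peaks per 10000 in the controls and 15.8, 14.6 and 14.7 in the knockdown libraries (14.2 ± 1.90 and 15.0 ± 0.686, SD, n = 3 each). The difference of 0.839 rested on control replicate 2, without which it was −0.244. Basement membrane windows held 10.3, 11.1 and 10.9, then 11.1, 10.9 and 9.85, a difference of −0.182. Without knockdown replicate 3 it was 0.201. The other chains held 18.9, 20.5 and 17.9, then 19.4, 19.5 and 20.4, a difference of 0.702. That difference turned to −1.57 when only peaks with −log10 q at or above 5 were kept.

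**Figure D5:**
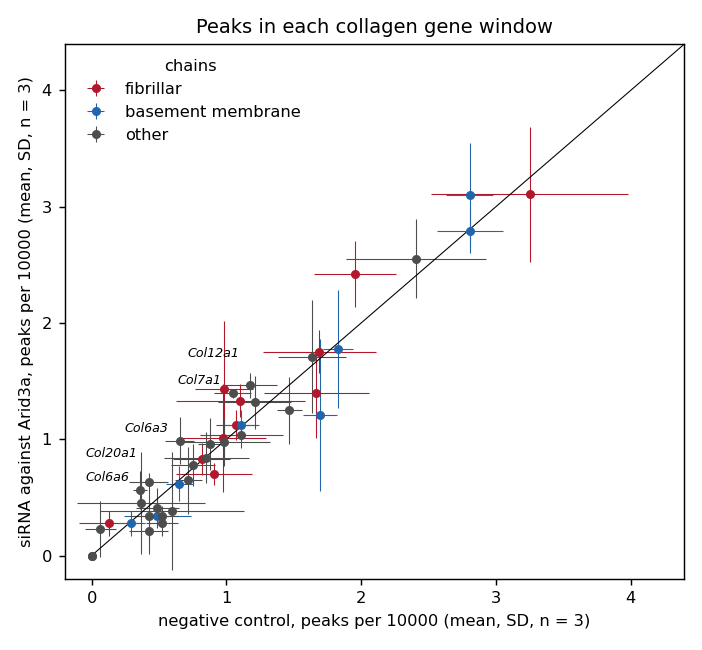
Peaks per 10000 peaks of the library for each collagen gene, mean of the 3 control libraries (x axis) against mean of the 3 knockdown libraries (y axis), colored by class, with SD bars (n = 3) and the line of equality. The named genes are the 5 whose knockdown values all lie above their control values (Col6a3, Col6a6, Col7a1, Col12a1 and Col20a1).

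Gene by gene, 42 chains had a peak and could be compared. In 5 of the 42 (11.9%) all 3 knockdown values of peaks per 10000 lay above all 3 control values, against 6.74% of 17734 genes. In 0 of 42 did they all lie below, against 2.85%. With 3 libraries against 3 the exact two-sided permutation test has 20 relabellings and cannot go below p = 0.1. Each of the 5 had that p and a Benjamini-Hochberg adjusted p of 1 over all genes, and no gene of either kind was under 0.05 before or after adjustment. The median difference over the 42 chains was 0.0115 per 10000, with 22 positive and 20 negative, against −0.0161 over all genes.

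All 5 were chains outside the fibrillar and basement membrane classes, and their differences amounted to a few peaks each. Col7a1 had 5, 4 and 5 peaks in the controls and 7, 7 and 6 in the knockdown libraries, which is 1.05 ± 0.137 and 1.40 ± 0.0395 per 10000 (SD, n = 3 each). Col6a3 had 4, 2 and 3, then 4, 5 and 5, and Col6a6, another collagen VI chain, had 2, 1 and 2, then 2, 3 and 3. Col12a1 had 7, 4 and 5, then 8, 7 and 6. Col20a1, like Col12a1 a fibril-associated chain, had 3, 1 and 2, then 3, 3 and 3. Its single region inside the gene had a peak in 2 control and 2 knockdown libraries. The uneven regions of its window lay in neighbouring genes. That in Arfgap1 had a peak in 1 control and 3 knockdown libraries, and that in Chrna4 in knockdown replicate 3 alone. Raw peak numbers of the groups overlapped in each of the 5 collagen genes except Col7a1. With lists of equal length none of the 5 kept the separation, which 1.16% of all genes had in that direction. With windows of 50 kb only Col7a1 did, against 6.05% of all genes. With gene bodies alone Col6a3, Col6a6 and Col12a1 did, and Col9a3 and Col11a1 joined them, against 8.34% of all genes. Col7a1 and Col20a1 did not, so their separation depended on the flanks.

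The other vessel wall chains overlapped between groups. Col1a1 had 10, 4 and 10 peaks in the controls and 9, 8 and 8 in the knockdown libraries, and Col1a2 had 6, 3 and 6, then 6, 5 and 5. Col3a1 had 5, 2 and 6, then 3, 4 and 3. Col5a1 had the most of the fibrillar chains, with 19, 8 and 19, then 19, 15 and 11, and Col5a2 had 8, 2 and 6, then 7, 6 and 6. In each of these 5 genes control replicate 2 was the lowest library. Among basement membrane chains Col4a1 had 8, 6 and 9, then 7, 9 and 2, and Col4a2 had 14, 10 and 14, then 15, 14 and 15. Col15a1 had 10, 6 and 9, then 11, 10 and 5, and Col18a1 had 13, 10 and 15, then 13, 15 and 12. Low values thus fell mostly in the shallow libraries, control replicate 2 and knockdown replicate 3. Col6a1 had 4, 2 and 4, then 2, 3 and 4. Col6a2 had 3, 1 and 3, then 2, 3 and 1, and Col8a1 had 9, 6 and 7, then 11, 9 and 5.

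Few collagen regions were confined to 1 group. A control-only region, with a peak in 3 of 3 control and 0 of 3 knockdown libraries, was found in 2 of 394 cases (0.508%), against 0.277% of all regions and 0.271% of regions in any gene window. A knockdown-only region was found in 1 case (0.254%), against 0.432% of all regions and 0.435% of those in any gene window. No single region can go below an exact p of 0.1. The first control-only region lay in Col5a1, 13.6 kb inside the gene at 27899845 to 27900274 of chromosome 2. Its control folds were 3.83, 6.09 and 5.52. The second lay downstream of Col6a3 at 90754198 to 90754559 of chromosome 1, with folds of 5.07, 3.28 and 7.77. The knockdown-only region lay in Col24a1, a fibrillar chain of developing bone, at 145338342 to 145338697 of chromosome 3 and 46.0 kb inside the gene. Its knockdown folds were 3.13, 6.33 and 4.65. All 3 are weak, and none was present under these definitions when only peaks with −log10 q at or above 5 were kept. Over all regions 0.139% were control-only and 0.314% knockdown-only under that limit.

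With 1 library of the opposite group allowed, 8 regions (2.03%) had peaks in 3 of 3 control libraries and at most 1 knockdown library, against 1.37% of all regions. In the opposite direction there were 10 (2.54%), against 2.15%. This rule and the regions named from it were chosen after the values were seen. The strongest of the 10 lay inside Col1a2 at 4539169 to 4539388, with folds of 9.56, 10.1 and 9.15 in the knockdown libraries and of 8.68 in control replicate 1. The region at the Col8a1 start, described above, was among the 8. In Col5a1 a region at 27895029 to 27895633, open in 3 knockdown libraries and in control replicate 1, lay close to the control-only region. Col6a3 had the same arrangement. Its region at 90750205 to 90750475, open in 3 knockdown libraries and in control replicate 3, was the neighbour of its control-only region.

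Promoter sequence was compared between open and closed starts. Of the 44 genes 35 matched the RefSeq promoter table, with 38 promoters for these genes, since some have more than 1 start. The median number of CpG was 16 in the 8 promoters open in 6 of 6 libraries, 12 in the 18 open in some and 5 in the 12 open in none. Over all 21263 promoters the median was 13, with 22 for those open in 6 of 6 libraries and 3 for those open in none. All 8 open collagen promoters held GGGCGG on either strand, against 68.7% of the 7805 open promoters at large and 46.2% of all promoters. The 8 come from 7 genes, since Col6a2 enters with both of its overlapping promoters, and those of Col4a1 and Col4a2 overlap too. CCAAT was found in 5 of the 8, against 42.1% of open and 38.2% of all promoters. TATAAA was found in none, against 5.77% of open and 12.6% of all promoters. The core ATTAAA, an AT-rich sequence of the kind bound by Arid3a, was in 2 of the 38 collagen promoters (Col6a4 and Col19a1). This is 5.26%, against 11.7% of all promoters, 6.39% of those open in 6 of 6 libraries and 18.2% of those open in none. TGANTCA, the AP-1 site, was in the Col6a1 promoter alone, against 6.99%. The CArG box, the serum response factor site of smooth muscle genes, was in the Col6a4 promoter alone, against 1.52%. Both strands were searched, and motifs may overlap.

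Genes for the enzymes, carriers and receptors of collagen mostly had open starts. A list of 40 such genes held 25 (62.5%) with a start open in 6 of 6 libraries, against 18.2% of the chains and 37.4% of all genes, and 5 with a start open in none. The open ones were 11 of 17 genes of chain modification and folding, such as the prolyl hydroxylases P4ha1 and P4ha2, 3 of 3 of secretion, 8 of 13 of trimming and crosslinking, such as Lox and Bmp1, and 3 of 7 receptors. In 2 of 40 (P3h2 and Plod2, which hydroxylate proline and lysine) all knockdown values of peaks per 10000 lay above the control values, against 6.74% of all genes. In another 2 (Colgalt2, a collagen glycosyltransferase, and Loxl2, a crosslinking oxidase) they all lay below, against 2.85%. Either count is 5% of the list, and no test was made of it. Plod2 had 6, 3 and 5 peaks in the controls and 8, 9 and 5 in the knockdown libraries, and Loxl2 had 2 in each control and 1 in each knockdown library. A control-only region was found at Itga2, a collagen receptor subunit, and a knockdown-only region at Bmp1, the protease that trims fibrillar procollagen. These are 1 of 40 genes each (2.5%), against 1.24% of all genes with a control-only and 1.96% with a knockdown-only region.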

How the data were processed

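Peak lists of 3 control and 3 knockdown ATAC-seq libraries were used, each deposited as 1 list per library. The submitters' processing notes name Bowtie2, Picard, MACS2 and mm10. Tool versions, settings, duplicate handling and any Tn5 offset: not given in the sources used here. Such an offset would move peak edges by a few bases, and kept duplicates would raise tag numbers. For each deposited peak the authors gave a fold (ratio of tags at the summit to the local background), a −log10 p and −log10 q, a score and a summit offset. Depth is not stated. The number of tags at a summit was recovered from the deposited fold and −log10 p, matching within 0.001 for at least 99.9962% of peaks per library.

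Gene bodies and promoters came from RefSeq tables of GRCm38.p6, the assembly of mm10. Windows, start windows and regions were defined as the text states. Strand was known for 17492 genes and not for 4395, for which both ends were searched. No distinction was made between exons, introns and untranslated parts. Peaks were counted per 10000 peaks of the library, and genes were compared by exact two-sided permutation with Benjamini-Hochberg adjustment over 17734 genes with a peak. Alternatives were lists of equal length, −log10 q of 5 or more, gene bodies alone, windows of 50 kb, bases covered, 50% cover of a region, a narrow start window (250 bases before to 50 after the start), type IV chains alone, a replicate block and leaving out each library. A comparison of the 4 deepest libraries was added after seeing the data. The scripts were tested on simulated data. Python 3.11.15, numpy 2.4.6, pandas 2.3.3, scipy 1.17.1 and matplotlib 3.10.9 were used.

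The collagen genes and all lists were chosen with earlier results of these data known. Genes named with values by rule were a list of vessel wall chains, those with a region confined to 1 group, those whose groups did not overlap, the densest and sparsest of each class, and those without a peak. Others were named outside these rules, among them Col5a3 and Col27a1, chosen from the values for their strong regions.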

Additional observations from a re-analysis of the deposited data

How the results depend on the processing

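Of the values computed under alternatives, 77 stayed within the spread of the libraries, or within 1.5 times for counts, and 44 did not. A median of 8 to 11 tags at the summit limits which weak peaks a list can hold. The cause of each shift was not tested.

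The difference in the share of peaks (1.36 per 10000) was 0.1003 with lists of equal length and −0.957 with −log10 q of 5 or more. For the other chains (0.702) it was −1.57 with −log10 q of 5 or more. Leaving out each library gave 0.921 to 1.73 for all chains, −0.244 to 1.53 for fibrillar, −0.419 to 0.201 for basement membrane and 0.0948 to 1.39 for other chains.

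With lists of equal length, 0 collagen genes had more peaks after knockdown (1.16% of all genes did) and 0 regions were control-only (0.426% of all regions). Under that setting 52 regions were constitutive (29.5% of all regions) and 1 start was open in 6 of 6 libraries (30.0% of all genes). With −log10 q of 5 or more, 1 gene had more peaks and 2 had fewer, against 1.93% and 4.19% of all genes. No collagen region was control-only or knockdown-only, against 0.139% and 0.314% of all regions. Under this limit 46 regions were constitutive (25.2% of all regions) and 2 starts were open (25.1% of all genes). Gene bodies alone gave 1 control-only and 54 constitutive regions, against 0.277% and 24.4% of all regions. Windows of 50 kb gave 1 gene with more peaks (6.05% of all genes) and 2 knockdown-only regions (0.432% of all regions). Bases covered gave 2 genes with higher values after knockdown (Col6a3 and Col12a1), against 3.96% of all genes. A cover of 50% gave 1 control-only and 45 constitutive regions, against 0.409% and 13.7% of all regions. The narrow start window gave 2 open starts, against 31.2% of all genes. Basement membrane chains had 0 open starts with lists of equal length, with that −log10 q limit and in the narrow window.

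In the 4 deepest libraries, without control replicate 2 and knockdown replicate 3, 14 genes had more peaks after knockdown (37.4% of all genes did). Fewer peaks were found in 3 (7.76% of all genes). There were 8 control-only, 11 knockdown-only and 138 constitutive regions, against 2.70%, 2.44% and 40.2% of all regions. Leaving out each library gave 5 to 10 genes with more peaks (10.1% to 23.6% of all genes) and 1 to 3 with fewer (4.89% to 7.34%). Control-only regions then numbered 3 to 6 (0.492% to 1.90% of all regions) and knockdown-only regions 1 to 11 (0.580% to 1.96%). Constitutive regions numbered 83 to 109 (26.2% to 31.5%), and 8 to 9 starts were open (37.6% to 41.4% of all genes). The number of genes with more peaks was 8 without control replicate 2 (23.6% of all genes), 8 without knockdown replicate 2 (10.4%) and 10 without knockdown replicate 3 (14.1%). Without each of the 6 libraries the number with fewer peaks was above 0. Control-only regions numbered 4 without control replicate 1 (0.758% of all regions). They numbered 6 without control replicate 2 (1.90%) or knockdown replicate 2 (0.820%). Knockdown-only regions numbered 7 without control replicate 1 (1.32% of all regions) and 4 without control replicate 3 (1.29%). They numbered 3 without knockdown replicate 1 (1.09%) or 2 (1.04%) and 11 without knockdown replicate 3 (1.96%).

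Libraries with the same number did not deviate together, with correlations of 0.0271, −0.0743 and −0.0781 over 17734 genes for numbers 1, 2 and 3. The best-correlated partners of numbers 1, 2 and 3 had the numbers 2, 3 and 2, so none matched its own. With the number as a replicate block, 7 collagen genes had more peaks in all 3 pairs (13.2% of all genes) and 3 had fewer (7.24%), and the differences in shares were the same values.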

Other observations

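Some collagen promoters rich in CpG were closed in every library. Of 9 collagen promoters with 20 or more CpG, 3 were open in 6 of 6 libraries and 3 (Col8a2 with 32, Col13a1 with 29 and Col25a1 with 23 CpG) were open in none. Of 7641 such promoters of all genes, 61.7% were open in 6 of 6 libraries and 11.1% in none. Col8a2 encodes a network-forming chain, and Col13a1 and Col25a1 encode chains that span the cell membrane. The CpG limit was chosen after the data were seen, and the difference was not tested.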
